A study of Rattus norvegicus with 6 samples.

Results

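The genes described here encode the proteins of the mitochondrial ribosome and of the TOM and TIM machinery that imports proteins into mitochondria, measured in spinal cord of rats carrying the SOD1 G93A mutation, a model of amyotrophic lateral sclerosis. They were taken by symbol, as every gene on the array whose symbol begins with Mrpl or Mrps and a digit, or with Timm or Tomm. This rule was chosen with earlier results of these data known. The array held 77 such genes with 1 probe each, among 22226 probes of which 13192 carry 1 gene symbol. There were 38 Mrpl genes, 22 Mrps genes and 17 Timm or Tomm genes. Of these, 75 were detected on at least 1 array and are described below among 8752 genes detected in this way. Mrps31 and Mrpl30 were detected on no array, with detection p-values from 0.0899 to 0.829 for Mrps31 and from 0.0431 to 0.707 for Mrpl30.

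RNA was pooled from 5 female Sprague-Dawley rats per array and hybridised to 6 Illumina rat BeadChips, so 30 rats entered the study. The groups were SOD1 G93A mutants killed before symptoms, when the disease set in or in its end stage, and wild-type (WT) littermates matched to each of these stages, with 1 pool each. The age label reads 10 weeks for every pool although that age belongs to the presymptomatic stage only, and the labels name both the lumbar and the thoracic cord. Neither the promoter of the transgene nor the line is given in the sources used here, and animals within a pool cannot be separated.

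The mitochondrial ribosome translates the few proteins that mitochondrial DNA encodes, all of them subunits of the respiratory chain and ATP synthase. Its own proteins are encoded in the nucleus, made in the cytosol and imported. Precursors enter through the TOM complex of the outer membrane, after which the TIM23 complex passes those with a presequence to the matrix, and small TIM chaperones in the intermembrane space carry hydrophobic proteins to the TIM22 complex of the inner membrane. Motor neurons, with long axons and a high demand for ATP, depend on these organelles, and mutant SOD1 protein is known to gather on spinal cord mitochondria in rodent models.

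The probe names as deposited do not belong to the values beside them, so each gene name rests on sorting the probe IDs as text and setting them against the rows in file order. After sorting, 93.5% of the 77 probes were detected on all 6 arrays, against 37.7% of all probes. With the IDs as deposited the share was 41.6%. The presymptomatic mutant array detected the fewest probes (9116) and the presymptomatic WT array the most (10942), and the 4 other arrays lay between 10122 and 10584. Values below are log2 normalized intensities, and a difference of 1 on that scale is 2-fold. A probe's level is not set against that of another probe. In such bulk RNA, fewer cells of a type and less RNA per cell cannot be told apart. The rat Sod1 probe read 13.02, 12.91 and 12.81 in the presymptomatic, onset and end-stage mutant pools, against 12.80, 12.91 and 13.07 in the WT pools of those stages, and it does not check the transgene.

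The transcripts of this machinery did not move as 1 block through the disease. Before symptoms most of them were somewhat higher in the mutant pool than in the WT pool of the same stage, while 4 stood at least 2-fold lower: Tomm22, Tomm40, Tomm34 and Mrps2 (7.35% of all genes did). With neqc, a background correction that assumes more noise, Tomm34 (−0.43) and Mrps2 (−0.55) no longer differed by 2-fold. In the main setting Mrpl14 and Mrpl23 stood at least 2-fold higher (2.47% of all genes). At onset the direction was mixed in the main setting. At end stage most were somewhat lower in the mutant pool, 2 of them (Tomm22 and Tomm34) by at least 2-fold (3.07% of all genes). Tomm34 no longer differed by 2-fold there with neqc (−0.12) or on the authors' deposited normalized values (−0.68). Mrpl18 alone was over 2-fold higher at end stage, at 6.27-fold (6.24% of all genes). In limma's tests across all 12711 probes detected on at least 1 array, Tomm22 and Tomm40 fell in the presymptomatic mutant pool. Mrpl18 rose in the end-stage mutant pool. In these comparisons 2.03% and 3.26% of all probes passed, and each of the 3 calls was lost in some other settings. No other gene of the set passed in any of the 5 comparisons made in the main setting.

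**Figure D1:**
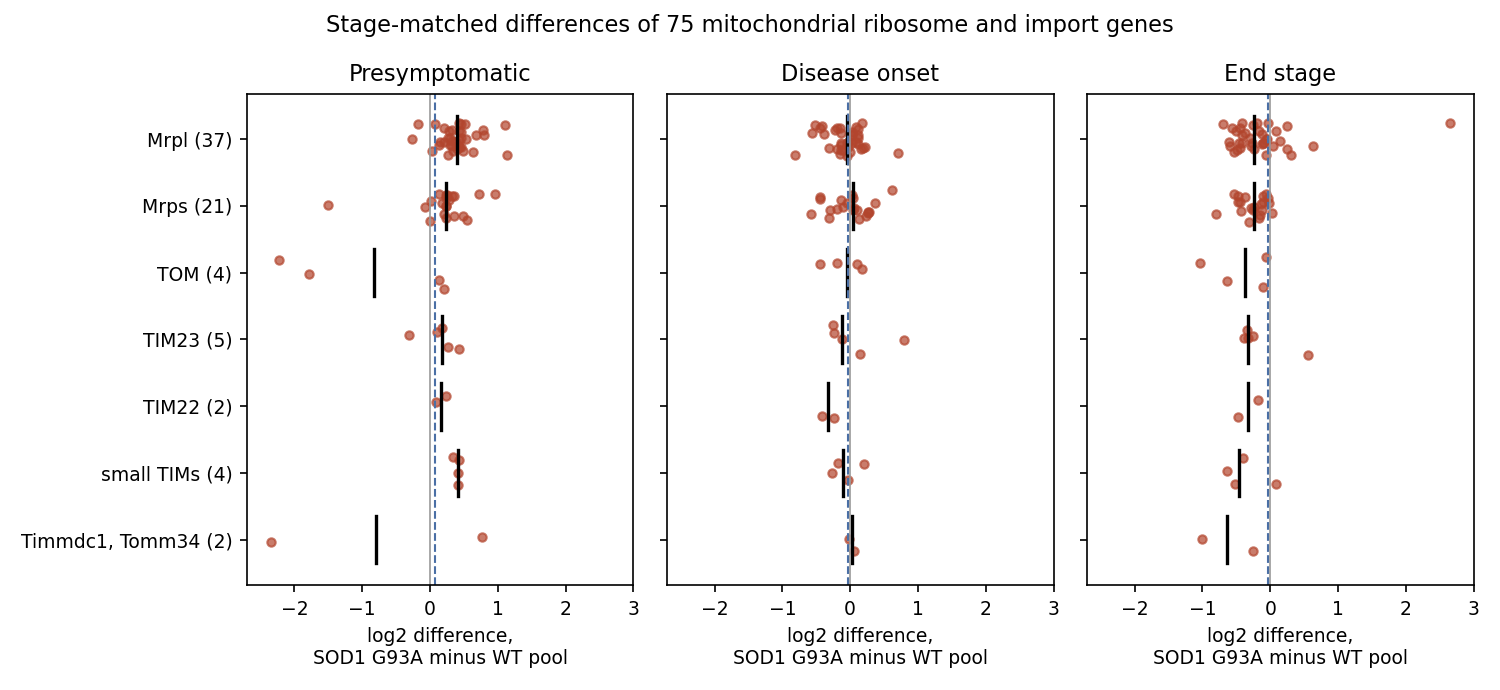
Log2 difference between the SOD1 G93A and the WT pool of the same stage (x axis) for 75 genes, grouped by role (y axis, number of genes in brackets), in 3 panels by stage. Each point is 1 gene, the black bar is the group's median and the dashed line is the median of all 8752 genes (0.07, −0.03 and −0.04). The large-subunit group sits right of 0 before symptoms (median 0.40) and left of it at end stage (−0.24).

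The outer membrane entry gate held the largest presymptomatic differences that passed a test. Tomm22 encodes the central receptor of the TOM complex and Tomm40 the channel through which nearly all imported precursors pass. Tomm22 read 7.26, 8.73 and 8.04 in the presymptomatic, onset and end-stage mutant pools, against 9.04, 9.17 and 9.06 in the WT pools of the same stages. All 3 mutant pools lay below all 3 WT pools, the presymptomatic one furthest. The stage-matched differences were −1.78, −0.44 and −1.03, so the transcript was 3.43-fold lower before symptoms and 2.04-fold lower at end stage.

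Tomm40 read 6.50, 8.67 and 8.17 in the presymptomatic, onset and end-stage mutant pools, against 8.72, 8.57 and 8.81 in the WT pools. Here the onset mutant pool lay within the WT range, and the presymptomatic pool was 4.66-fold below its WT pool. Against the 3 WT pools, limma gave a presymptomatic difference of −2.20 ± 0.23 (SE) for Tomm40, with an adjusted p of 0.00912. The corresponding value for Tomm22 was −1.83 ± 0.22 (SE), with an adjusted p of 0.0129. These 2 were the members that passed in this comparison, in which 2.03% of all probes did, 256 of 258 of them lower in the mutant pool. The lone mutant pool was assumed to have the spread of the WT pools, whose SD was 0.07 for Tomm22 and 0.12 for Tomm40. For the test, limma drew this spread toward that of all kept probes, so the SEs do not rest on these SDs alone. Both calls were lost without the WT onset pool (adjusted p = 0.124 for Tomm22 and 0.108 for Tomm40), on the authors' deposited normalized values (0.096 for each), with no detection filter (0.0561 for each) and with neqc (0.143 and 0.174). In these 4 settings the difference of Tomm22 lay between −2.01 and −1.61 and that of Tomm40 between −2.29 and −1.44.

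The presymptomatic mutant array was the one with the fewest detected probes, and transcripts of unrelated machinery fell on it as well, among them Rps2 (−3.94) and Rpl13a (−3.05) of the cytosolic ribosome, with an adjusted p of 0.00589 for each in limma's test. The part of that array in the 2 Tomm calls was not tested. At end stage, Tomm22 stood at −1.05 ± 0.22 (SE) against the WT pools and did not pass in limma's test (adjusted p = 0.0581). It did pass at that stage when only probes detected on all 6 arrays were tested.

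The other receptors of the complex did not share these differences. Tomm20, which recognises presequences, read 11.36, 10.90 and 10.77 in the presymptomatic, onset and end-stage mutant pools and 11.15, 11.11 and 10.87 in the WT pools. Tomm70, the receptor for carrier proteins, read 9.10, 9.26 and 9.02 in the mutant pools and 8.97, 9.09 and 9.08 in the WT pools. For both genes the mutant and WT pools overlapped, and no stage-matched difference exceeded 0.21 in size.

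Tomm34 is named with the complex but encodes a cytosolic cochaperone of the Hsp70 and Hsp90 system that holds precursors before import. It read 4.63, 6.37 and 4.91 in the presymptomatic, onset and end-stage mutant pools, against 6.98, 6.38 and 5.91 in the WT pools. The presymptomatic and end-stage mutant pools lay below all WT pools, and the onset pools differed by −0.01. The transcript was not above background in the presymptomatic mutant pool. In the main setting it was at least 3.94-fold lower there than in its WT pool, and 2.01-fold lower at end stage. With neqc the presymptomatic and end-stage differences were −0.43 and −0.12. On the deposited normalized values they were −1.7 and −0.68. In limma's comparison with the 3 WT pools neither stage passed (adjusted p = 0.0800 and 0.0929).

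**Figure D2:**
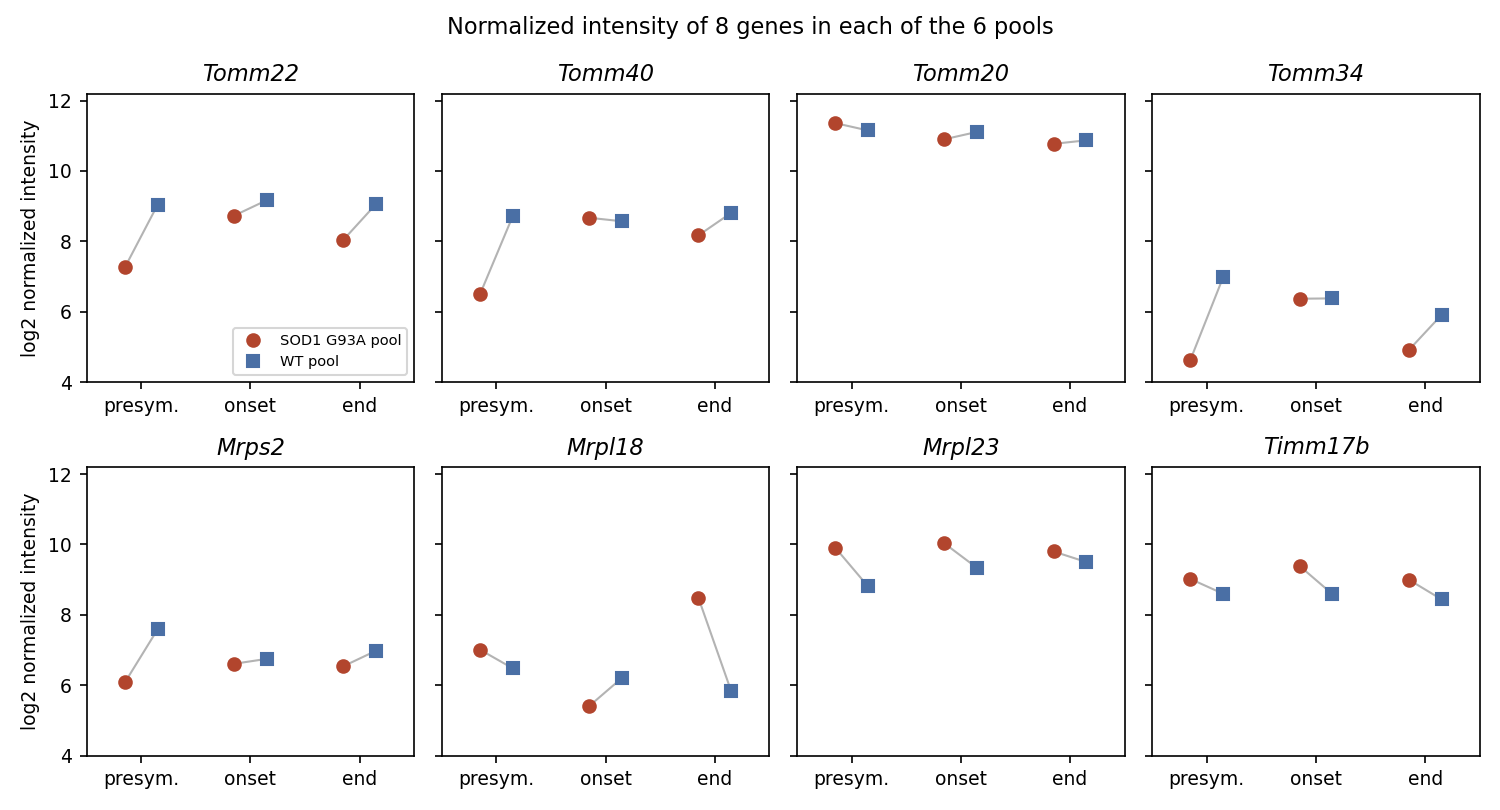
Log2 normalized intensity (y axis) of 8 genes in the presymptomatic, onset and end-stage pools (x axis), with SOD1 G93A pools as red circles and WT pools as blue squares, 1 pool of 5 rats per point and a line joining the pools of a stage. Tomm22, Tomm40, Tomm34 and Mrps2 are lowest in the presymptomatic mutant pool, Tomm20 is nearly level, and Mrpl18 is highest in the end-stage mutant pool at 8.48.

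The upstream sequences of Tomm22, Tomm40 and Tomm20 are shown because the genes of 1 complex differed so much in these pools. That of Tomm70 is not shown, so motifs and differences cannot be compared over the whole complex. Each is the 250 bases before the annotated start of the gene in RefSeq's GRCr8 assembly, read 5′ to 3′ on the gene's own strand. Capitals mark matches to the ETS family motif CCGGAAG, on either strand, and to the NRF1 motif CGCNTGCGC. The first lies at chr7:113107056-113107305 on the plus strand, the second at chr1:88498834-88499083 on the minus strand and the third at chr19:71832421-71832670 on the minus strand.
Tomm22: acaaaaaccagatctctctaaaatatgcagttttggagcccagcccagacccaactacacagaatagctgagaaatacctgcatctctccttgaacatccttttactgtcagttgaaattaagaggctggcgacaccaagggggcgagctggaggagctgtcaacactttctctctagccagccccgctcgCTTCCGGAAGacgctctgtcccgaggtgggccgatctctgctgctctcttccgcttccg
Tomm40: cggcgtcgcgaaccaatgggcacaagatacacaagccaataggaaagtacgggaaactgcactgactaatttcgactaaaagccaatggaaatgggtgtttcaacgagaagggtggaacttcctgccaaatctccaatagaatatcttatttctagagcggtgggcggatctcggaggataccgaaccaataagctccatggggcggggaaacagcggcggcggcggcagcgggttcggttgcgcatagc
Tomm20: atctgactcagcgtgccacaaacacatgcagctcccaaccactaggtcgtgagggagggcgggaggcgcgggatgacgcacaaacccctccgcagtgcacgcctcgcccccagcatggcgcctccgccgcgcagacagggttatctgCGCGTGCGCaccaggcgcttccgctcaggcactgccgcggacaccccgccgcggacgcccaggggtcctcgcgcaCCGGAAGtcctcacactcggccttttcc
The capitals in Tomm22 are a match on each strand that overlap each other. Tomm40, which fell together with Tomm22 before symptoms, has no match in this window, and Tomm20, which did not, has 1 match to each motif.

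The inner membrane machinery differed less. Timm17b, which encodes 1 of the paired Tim17 partners of the Tim23 channel, read 9.02, 9.39 and 9.0 in the presymptomatic, onset and end-stage mutant pools, against 8.60, 8.59 and 8.44 in the WT pools. All 3 mutant pools lay above all 3 WT pools. The stage-matched differences were 0.42, 0.80 and 0.56. Over all stages, with stage as a block, the difference was 0.60 ± 0.21 (SE, 3 pools each), and it did not pass in limma's test (adjusted p = 0.380). Its paralog Timm17a had differences of 0.27, −0.25 and −0.33, so the paralogs went apart at onset and at end stage, a contrast that was not tested.

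Timm23, the channel itself, read 11.84, 11.44 and 11.40 in the presymptomatic, onset and end-stage mutant pools and 11.74, 11.56 and 11.65 in the WT pools. Timm21, which links TIM23 to the TOM complex, had differences of 0.18, −0.24 and −0.35. Both symptomatic mutant pools lay below all 3 WT pools for these 2 genes, as they did for 18.8% of all genes. Timm44, the scaffold of the import motor, was detected on the presymptomatic WT array alone and is not interpreted.

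The TIM22 complex, which inserts metabolite carriers, was represented by its channel Timm22 and by Timm10b, a small TIM bound to it. Timm22 had differences of 0.09, −0.24 and −0.18, and Timm10b of 0.24, −0.41 and −0.47. The 4 soluble small TIMs, Timm8a1, Timm8b, Timm10 and Timm13, all stood higher before symptoms, by 0.41, 0.42, 0.34 and 0.41. At end stage 3 of them stood lower, Timm8b by −0.64, Timm10 by −0.52 and Timm13 by −0.40, and Timm8a1 was at 0.09. Timm8a1 is the rat counterpart of the human gene whose loss causes deafness-dystonia syndrome.

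Timm8b read 12.71, 12.27 and 11.80 in the presymptomatic, onset and end-stage mutant pools, against 12.28, 12.30 and 12.44 in the WT pools. Its presymptomatic mutant pool lay above the WT range and its end-stage mutant pool below it. At end stage it did not pass in limma's test (−0.54 ± 0.23 SE, adjusted p = 0.234). Timmdc1, a complex I assembly factor that shares its name with the TIMs, stood higher before symptoms (0.77) and was at 0.05 and −0.26 at onset and end stage.

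In the large subunit of the mitochondrial ribosome, 35 of 37 genes stood higher in the presymptomatic mutant pool than in its WT pool, with a median of 0.40. Among the Mrps genes, counted here by symbol as the small subunit although Mrps30 and Mrps18a sit in the large one, 19 of 21 did, with a median of 0.24. Over all 75 genes 67 were higher, against 55.7% of all genes, and the median was 0.30, against 0.07 over all genes. At least 0.32 higher on the log2 scale were 36 of the 75, where the share over all genes was 30.3%, and 4 were at least that much lower, where it was 23.7%. In the same pools 5 of 6 measured oligodendrocyte markers (median −0.87) and 4 of 4 measured astrocyte markers (median −0.44) stood lower. Among these, Cnp (−0.09) and Slc1a3 (−0.07) were near 0. Also lower were 5 of 8 neuron (median −0.25), 5 of 7 skeletal muscle (−0.13) and 4 of 6 meningeal and fibroblast markers (−0.10). Higher were 3 of 5 motor neuron (0.11) and 5 of 9 microglial markers (0.07). The part of these lists in the pattern was not tested. None of the ribosomal genes passed limma's test before symptoms, in which each is compared with all 3 WT pools. The genes with the highest presymptomatic differences were Mrpl14 (1.13), Mrpl23 (1.11), Mrps34 (0.96), Mrpl28 (0.80), Mrpl16 (0.78) and Timmdc1.

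Mrpl23 encodes a protein at the exit of the tunnel through which nascent chains leave the large subunit. It read 9.91, 10.03 and 9.80 in the presymptomatic, onset and end-stage mutant pools, against 8.81, 9.33 and 9.50 in the WT pools. All 3 mutant pools lay above all 3 WT pools, and the stage-matched difference was smaller at each later stage (1.11, 0.70 and 0.30), with WT pools that read higher at each later stage and mutant pools between 9.80 and 10.03. Over all stages the difference was 0.70 ± 0.23 (SE, 3 pools each), which did not pass in limma's test (adjusted p = 0.363).

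Mrpl14, a protein of the face that joins the small subunit, read 6.04, 5.80 and 5.09 in the presymptomatic, onset and end-stage mutant pools, against 4.91, 5.79 and 5.55 in the WT pools. The presymptomatic WT value was the lowest of the 6 and lay near background, and the mutant and WT pools overlapped. With neqc its presymptomatic difference of 1.13 shrank to 0.14. Mrps34, a protein found in mitochondrial but not bacterial small subunits, read 9.25, 8.79 and 8.21 in the mutant pools and 8.29, 8.74 and 9.01 in the WT pools. Its differences of 0.96, 0.04 and −0.80 put the pools of the 2 genotypes in opposite orders over the stages.

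Among the ribosomal genes, 4 went against the common presymptomatic direction. Mrps2, a protein of the small subunit, read 6.08, 6.61 and 6.54 in the presymptomatic, onset and end-stage mutant pools, against 7.59, 6.75 and 6.98 in the WT pools. All 3 mutant pools lay below all 3 WT pools, and the presymptomatic difference was −1.51, or 2.85-fold. It did not pass in limma's test against the 3 WT pools (−1.03 ± 0.35 SE, adjusted p = 0.191). The other 3 were Mrpl49 (−0.27), Mrpl17 (−0.17) and Mrps12 (−0.07), the last a protein of the decoding site.

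The presymptomatic pattern depended on how bright the probes were and on the scaling. Across all genes the presymptomatic median was −0.02 for genes with a mean log2 intensity of 4 to 6, 0.22 at 6 to 8, 0.16 at 8 to 9, 0.08 at 9 to 10, 0.07 at 10 to 11 and 0.02 above that. The 75 genes had medians of −0.14, 0.46, 0.41, 0.32, 0.25 and 0.21 in the same ranges. These ranges held 4, 6, 17, 18, 20 and 10 of them, so the first 2 medians rest on few genes. Of the 65 with a mean log2 of 8 or more, 60 stood higher, against 58.3% of all genes of that brightness. Against the end-stage WT pool 53 of the 75 stood higher, against 54.4% of all genes, with a median of 0.18. When arrays were aligned on their 75th percentile in place of quantiles, the median of the 75 was 0.61 and that of all genes was 0.25. On the authors' deposited normalized values it was 0.19, against 0.11 for all genes.

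**Figure D3:**
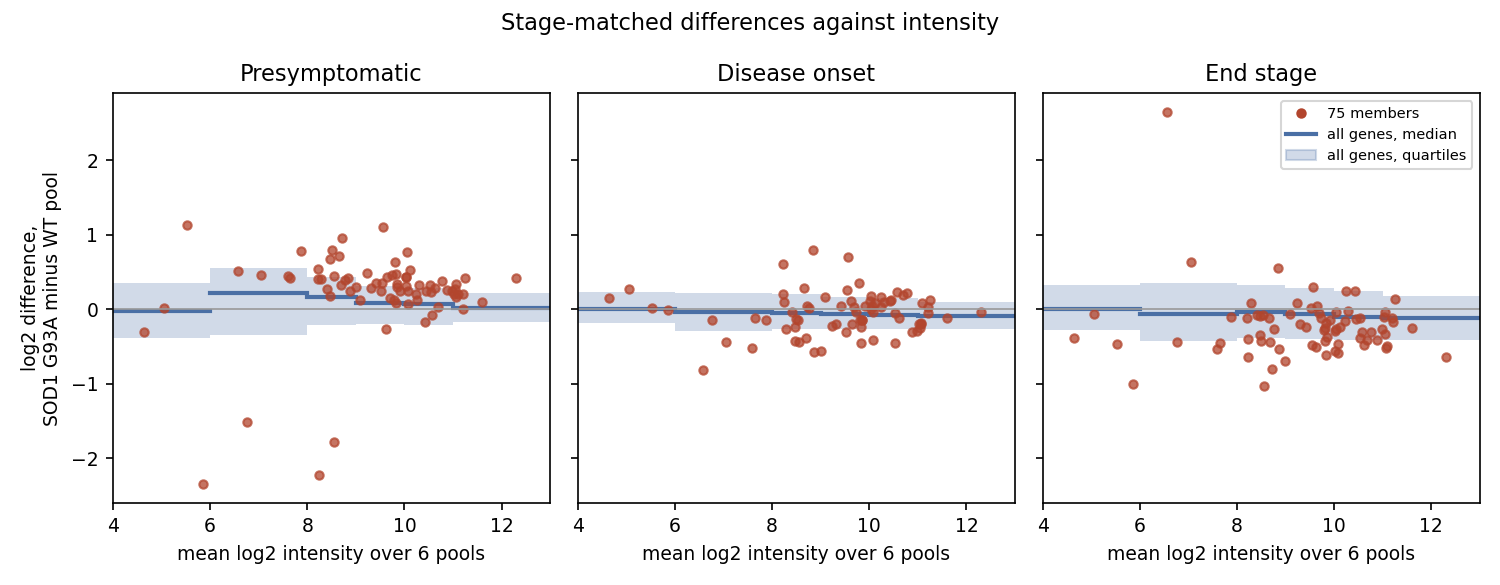
Log2 difference between the SOD1 G93A and the WT pool of the same stage (y axis) against the mean log2 intensity over 6 pools (x axis), in 3 panels by stage. Points are the 75 genes, and the blue line and band are the median and quartiles of all genes within each range of intensity. Most points lie above the blue line before symptoms and below it at end stage, where Mrpl18 stands at 2.65.

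At onset the direction depended on the setting. The median difference was −0.03 over the 75 genes and −0.03 over all genes, with 34 genes higher and 41 lower, where 53.8% of all genes were lower. With arrays aligned on their 75th percentile 54 of the 75 were lower, against 56.1% of all genes, and against the end-stage WT pool 55 were, against 53.3%. No gene of the set differed by 2-fold, as 3.8% of all genes did. Against the 3 WT pools 86 of all probes passed in limma's test (0.677%, every one higher in the mutant pool), and 0 of the 75 genes did, with 4 of them at an unadjusted p below 0.05 (12.5% of all probes): Timm17b, Mrpl23, Mrps27 and Mrpl18. The highest differences were those of Timm17b (0.80) and Mrpl23 (0.70), followed by the small-subunit genes Mrps26 (0.61), Mrps11 (0.36), Mrps17 (0.28) and Mrps25 (0.26), leaving out Mrps15 (0.27), which was not above background in the onset WT pool. The lowest were Mrpl18 (−0.81), Mrps27 (−0.57), Mrpl47 (−0.56), Mrpl50 (−0.52), Mrps18c (−0.45) and Mrps30 (−0.45), the last a protein that sits in the large subunit despite its name.

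At end stage 64 of the 75 genes stood lower in the mutant pool than in its WT pool, against 53.5% of all genes, with a median of −0.26 against −0.04. The counts were 29 of 37 in the large subunit, 20 of 21 in the small subunit, 4 of 4 in the TOM complex, 4 of 5 in TIM23, 2 of 2 in TIM22 and 3 of 4 among the soluble small TIMs. At least 0.32 lower on the log2 scale were 31 genes, where the share over all genes was 27.8%, and 3 were at least that much higher, where it was 24.8%. The lowest differences were those of Tomm22 (−1.03), Tomm34 (−1.01), Mrps34 (−0.80), Mrpl47 (−0.69), Tomm40 (−0.64) and Timm8b (−0.64). Besides Mrpl18, the highest were Mrpl51 (0.63), Timm17b (0.56), Mrpl23 (0.30), Mrpl17 (0.25) and Mrpl43 (0.25).

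The size of this shift rested in part on the WT pool it was set against. The end-stage WT pool was itself high in these transcripts, with a median of 0.14 above the presymptomatic WT pool (17 of 75 lower, against 46.0% of all genes) and 0.12 above the onset WT pool (27 of 75 lower, against 47.1%). Set against those pools, the end-stage mutant pool had a median of −0.10 (45 of 75 lower, against 50.3% of all genes) and −0.12 (46 of 75 lower, against 51.3%). Tests against all 3 WT pools, which are shared between the stages, found 0 of the 75 lower at end stage (0.606% of all probes were), and 6 of the 75 had an unadjusted p below 0.05 in limma's fit (20.7% of all probes had), Mrpl18 among them. Within the mutants, the onset pool stood below the presymptomatic pool with a median of −0.27 (58 of 75 lower, against 52.8% of all genes) and the end-stage pool below it with a median of −0.38 (66 of 75 lower, against 51.4%). Between end stage and onset the median was −0.03.

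Other cell types moved in the same pools. At end stage all 8 neuron markers (Snap25, Syt1, Nefl, Nefm, Stmn2, Thy1, Eno2 and Rbfox3) stood lower, with a median of −0.76, and their summed level on the log2 scale was 14.49 to 15.02 over the mutant pools and 15.21 to 15.35 over the WT pools. All 9 measured microglial markers stood higher at end stage, with a median of 1.96 and a summed level of 13.25 to 15.13 over the mutant pools and 13.18 to 13.44 over the WT pools. All 7 skeletal muscle markers stood lower at end stage, with a median of −2.39. Their summed level was 10.45 to 12.22 over the mutant pools and 11.54 to 12.91 over the WT pools, with the highest value in the end-stage WT pool. All 6 markers of meninges and fibroblasts stood higher at end stage (median 1.72, summed level 13.56 to 14.53 over the mutant pools and 13.19 to 14.24 over the WT pools). All 6 measured oligodendrocyte markers stood lower at end stage (median −0.93, summed level 13.60 to 14.17 over the mutant pools and 13.95 to 14.42 over the WT pools). Of 5 measured motor neuron markers 4 stood lower (median −1.86, summed level 11.38 to 12.40 over the mutant pools and 12.16 to 12.64 over the WT pools). The listed markers Csf1r, Chat, Mnx1, Gfap and Aldh1l1 are not among the measured genes. The part of any of these lists in the end-stage shift was not tested.

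Mrpl18 went against the rest at end stage. It encodes a protein of the central protuberance of the large subunit, a region that contacts bound tRNA and the small subunit. It read 7.01, 5.41 and 8.48 in the presymptomatic, onset and end-stage mutant pools, against 6.48, 6.21 and 5.83 in the WT pools. The end-stage mutant pool was the highest of the 6 and the onset mutant pool the lowest, so the mutant pools lay on both sides of the WT range. The stage-matched differences were 0.52, −0.81 and 2.65. Against the 3 WT pools Mrpl18 rose by 2.30 ± 0.30 (SE) at end stage, with an adjusted p of 0.0140 in limma's test. It was 1 of 338 probes that passed as higher in this comparison (2.66% of all, and 3.26% in either direction). The call was lost without the WT onset pool (adjusted p = 0.103), on the deposited normalized values (0.116) and with no detection filter (0.0735), with a difference of at least 2.18 in each. With neqc the call held (adjusted p = 0.0387) at a smaller difference of 1.27, and the stage-matched difference was 1.33 in place of 2.65.

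The 250 bases before the annotated start of Mrpl18 are given for the gene with the largest difference in the set. They lie at chr1:50384702-50384951 of GRCr8 on the plus strand, hold none of the 5 motifs searched and so carry no capitals.
Mrpl18: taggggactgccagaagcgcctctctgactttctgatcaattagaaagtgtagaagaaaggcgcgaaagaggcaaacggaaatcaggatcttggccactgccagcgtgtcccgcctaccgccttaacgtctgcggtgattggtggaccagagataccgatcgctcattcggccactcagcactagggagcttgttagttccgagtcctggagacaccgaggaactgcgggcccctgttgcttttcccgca
Among the motifs searched was GAANNTTC, a pair of facing heat shock element units that reads the same on both strands, which was found in 3.08% of 65 promoters of the set and in 7.08% of all 27457 promoters.

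Across the 3 stages the sign of the difference most often turned. A presymptomatic difference above 0 together with an end-stage difference below 0 was found in 57 of the 75 genes, against 27.7% of all genes. With 67 of the 75 higher before symptoms and 64 lower at end stage, this count could hardly be smaller and is no separate result. Set against the presymptomatic or the onset WT pool, 45 or 46 of the 75 were lower at end stage. Differences of 1 sign at all stages were few, which follows from the same counts. All 3 were above 0 in Mrpl23, Mrpl43, Mrpl52 and Timm17b (4 of 75, against 17.1% of all genes), and all 3 were below 0 in Mrps2, Tomm22 and Tomm34 (3 of 75, against 16.2%). With the 75th-percentile alignment and on the deposited normalized values the onset difference turned for Mrpl43 (−0.09 and −0.01) and for Tomm34 (0.04 and 0.04). All 3 mutant pools lay above all 3 WT pools for Mrpl23, Mrpl43 and Timm17b (3 of 75, against 8.11% of all genes) and below them for Mrps2 and Tomm22 (2 of 75, against 6.73%). For Mrpl43 the pools overlapped in both of those settings. With stage as a block, limma's test of genotype over all 6 pools passed 0 of 12711 probes after adjustment, with 1371 (10.8%) at an unadjusted p below 0.05, among them 5 of the 75 genes: Tomm22, Mrpl23, Timm17b, Tomm34 and Mrps2.

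The onset and end-stage mutant pools together, against the 3 WT pools, gave 440 called probes (3.46%) and 0 of the 75 genes in limma's test, of which 6 had an unadjusted p below 0.05 (17.4% of all probes). Those were Timm17b (0.66), Tomm22 (−0.71), Mrpl47 (−0.56), Mrpl23 (0.71), Mrpl50 (−0.50) and Mrps27 (−0.49). Both symptomatic pools lay below all 3 WT pools for 16 of the 75 genes, against 18.8% of all genes, and above them for 4, against 17.6%. The 16 were 9 ribosomal genes besides Mrps2, and Timm10, Timm10b, Timm21, Timm23, Timm8b and Tomm22. Mrpl47, a protein near the tunnel exit, had the lowest end-stage difference among those 9.

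**Figure D4:**
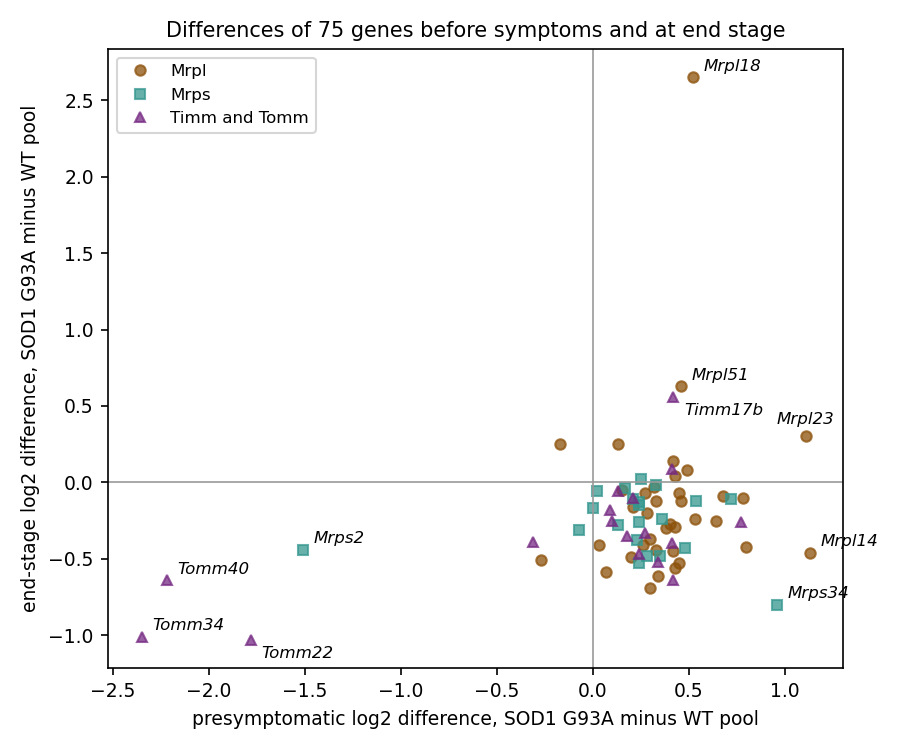
End-stage log2 difference (y axis) against presymptomatic log2 difference (x axis), each SOD1 G93A minus the WT pool of the stage, with 1 point per gene for Mrpl (circles), Mrps (squares) and Timm or Tomm genes (triangles). Of 75 genes 57 lie right of 0 and below 0, while Tomm40, Tomm34, Tomm22 and Mrps2 stand apart at the left and Mrpl18 at the top.

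The 3 stage-matched differences use different arrays, so they can be set against each other gene by gene. Across the 75 genes, which are not independent replicates and share the arrays of a stage, Pearson's r was 0.31 between the presymptomatic and end-stage differences (Spearman's rho 0.18). Over all 8752 genes these values were 0.21 and 0.15. Between presymptomatic and onset differences r was 0.04 (rho −0.06), and −0.01 (rho −0.01) over all genes. Between onset and end stage r was −0.05 (rho 0.13), and 0.58 (rho 0.41) over all genes. These are descriptions, with no test.

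Genes that build or use the mitochondrial ribosome but carry other names gave the following. Of 5 ribosomal proteins outside the symbol rule 3 were measured, and Gadd45gip1, Aurkaip1 and Chchd1 stood at 0.69, 1.0 and 0.41 before symptoms and at −0.15, −0.01 and −0.13 at end stage. Of 20 genes for assembly of the mitochondrial ribosome 15 were measured, with medians of 0.24, −0.18 and −0.20 at the presymptomatic stage, onset and end stage. Among them Mrm3, a methyltransferase of the large rRNA, fell before symptoms (−1.40, adjusted p = 0.0344 in limma's test) and was the only one of the 15 to pass in any comparison. Of all probes 2.03% passed before symptoms. Eral1, which guards the small rRNA, stood at −1.72 before symptoms without passing. The 8 measured translation factors of 16 had medians of 0.12, −0.29 and −0.22, and the 10 measured aminoacyl-tRNA synthetases of 17 had medians of −0.10, −0.14 and −0.35. None of these 18 genes passed.

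Of 23 further import genes 14 were measured, with medians of 0.19, −0.12 and −0.28, and 13 stood lower at end stage. None passed. The lowest at end stage was Hspe1 (−0.92), the cochaperonin that folds imported proteins, followed by Pmpca (−0.66), a subunit of the protease that removes presequences, and the exception was Mtx1 (0.36), a partner of the outer membrane sorting machinery. Hspa9, the Hsp70 that drives matrix import, stood at 0.04, −0.12 and −0.07.

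The respiratory chain and ATP synthase, whose core subunits the mitochondrial ribosome makes, had medians of 0.18, −0.21 and −0.40 over 68 nuclear genes. Assembly factors such as Ndufaf1 are counted among these genes. At end stage 66 of the 68 stood lower, against 53.5% of all genes. In this list Cox7a2l (−2.55, adjusted p = 0.0105) and Ndufv3 (−1.28, adjusted p = 0.0402) fell before symptoms in limma's test, and no gene passed at a later stage. Among 61 genes of the cytosolic ribosome 50 stood higher at end stage, with a median of 0.17. There 3 fell before symptoms and 1 with the symptomatic pools together. Of all probes, 2.03% passed before symptoms, 256 of 258 of them lower, and 3.46% passed with the symptomatic pools together. The mitochondrial ribosome's genes thus stood on the other side of 0 from those of the cytosolic ribosome at end stage, a difference that was not tested.

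**Figure D5:**
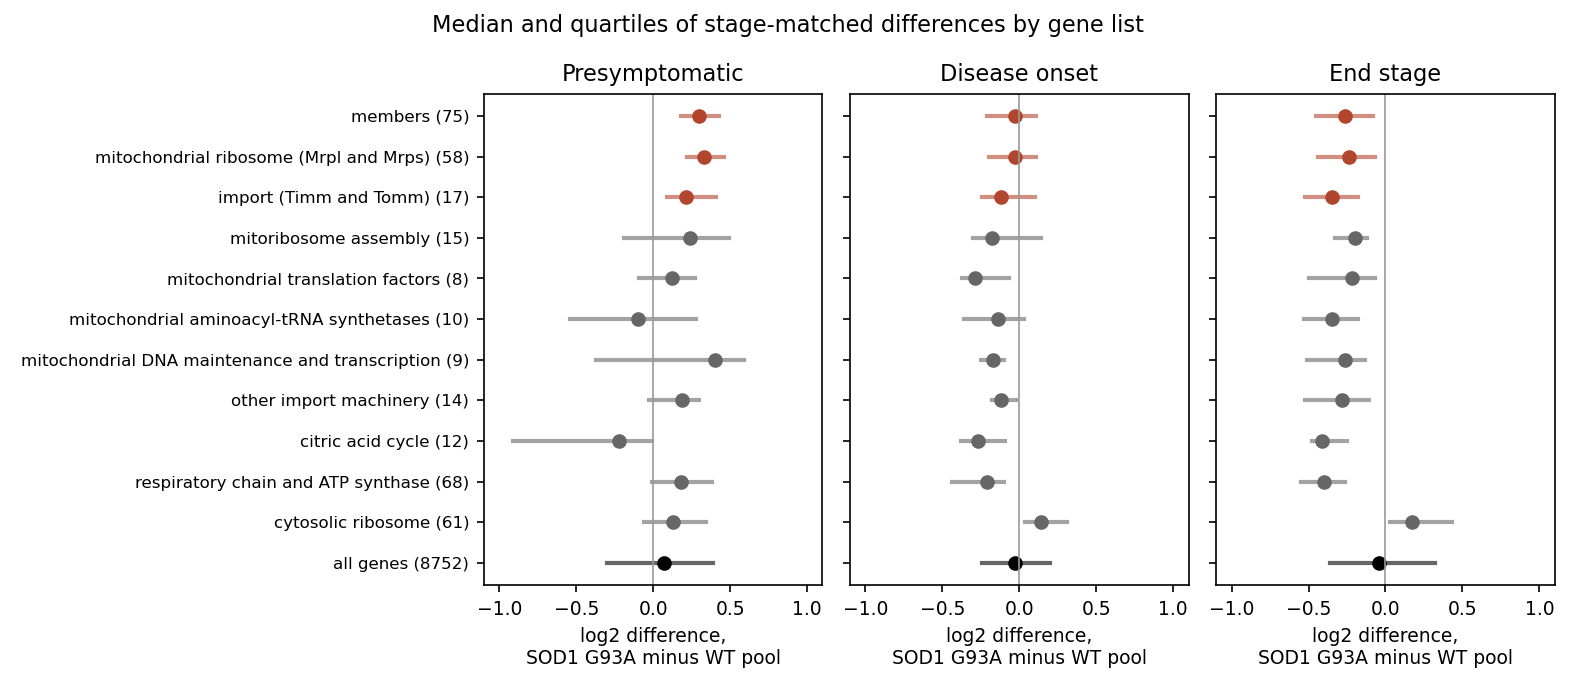
Median (point) and quartiles (bar) of the log2 difference between the SOD1 G93A and the WT pool of the same stage (x axis) for each gene list (y axis, number of measured genes in brackets), in 3 panels by stage. Red marks the genes of the mitochondrial ribosome and import, grey other lists and black all genes. At end stage the mitochondrial lists drawn here lie left of 0 and the cytosolic ribosome right of it (0.17).

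The bases upstream of the starts were searched for motifs, which the symbol rule did not use. RefSeq's GRCr8 table held the 250 upstream bases of 65 of the 77 genes. The ETS family motif CCGGAAG, which GABP is known to bind, was present on either strand in 29.2% of them, against 7.78% of all 27457 promoters. The NRF1 motif CGCNTGCGC was present in 15.4%, against 5.53%, and the YY1 motif AAGATGGCG in 1.54%, against 0.721%. The TATA box TATAAA was present in 10.8%, against 13.1%. The promoters of the set had a median GC content of 54.8% and a median of 14 CpG dinucleotides, against 52.0% and 6 for all promoters, so they also differ from the rest in base composition. Genes of the set with the ETS motif did not stand apart in these pools: 18 measured genes with it had median differences of 0.27, −0.04 and −0.26 at the presymptomatic stage, onset and end stage, and 45 without it had 0.32, −0.05 and −0.24. For NRF1, 9 measured genes with the motif had median differences of 0.28, −0.15 and −0.10 at these stages. The 54 without it had 0.33, −0.03 and −0.26. Neither contrast was tested. The upstream bases of Mrpl23, which lay above WT at all 3 stages, hold 1 ETS match, in capitals, at chr1:207116680-207116929 on the plus strand.
Mrpl23: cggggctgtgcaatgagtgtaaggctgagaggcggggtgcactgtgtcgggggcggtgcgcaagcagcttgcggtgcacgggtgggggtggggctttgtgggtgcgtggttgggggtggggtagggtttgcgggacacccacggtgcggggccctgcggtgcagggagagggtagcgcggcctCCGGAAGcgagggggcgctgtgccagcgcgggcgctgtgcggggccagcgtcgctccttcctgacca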

How the data were processed

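Pooled RNA was biotin-labelled per the labels' protocols, and BeadStudio 3.2.6 is named in the submitters' processing notes. The deposited intensity values are already background-subtracted and scaled (array means 330.9 to 332.4), with a detection p-value deposited beside each. The authors' own normalized intensity is in another deposited table, on a linear scale and with no method named in the labels. From these, log2 values were computed by normexp with noise parameters regressed from intensity on detection p between 0.05 and 0.95 (SD 6.52 to 8.46), offset 16 and quantile normalization, in R 4.3.3 with limma 3.58.1. Probes with a detection p below 0.01 on at least 1 array were kept (12711).

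Probe IDs were sorted as text, and 1 ID has the same place in both orders. All 77 symbols matched RefSeq, which also lists 62 pseudogenes of such names, so cross-hybridisation cannot be judged without probe sequences. For genes with several probes the brightest stood for its gene. The 5 comparisons used lmFit and eBayes with Benjamini-Hochberg adjustment over the kept probes (threshold 0.05, two-sided). They had 2 residual degrees of freedom, or 3 for symptomatic pools against WT. In the tests of a single stage the 3 WT pools, of different stages, served as replicates, and their spread gave the residual. The test of symptomatic pools also used the spread between the onset and end-stage mutant pools. With stage as a block, the residual was the variation of the genotype difference between stages. In every test eBayes drew the spread toward that of all kept probes. None of these p-values measures the spread between single rats. Stage-matched differences have no replicate and no test. A gene not above background in 1 pool is given as "at least", against the higher of its own value and the lowest detected signal there.

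The members and lists were chosen with earlier results of these data known. Named were the genes past the threshold or 2-fold, the 6 highest and 6 lowest per stage, and those whose genotypes did not overlap. The rule's naming of the brightest and dimmest genes was not used, since levels of different probes are not comparable. Alternatives were neqc, a 75th-percentile shift, the deposited normalized values, other detection filters, a trended robust prior, no stage block, other WT pools and leaving out each pool.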

Additional observations from a re-analysis of the deposited data

Results flagged for a closer look

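In 9 genes the mutant pool lay beyond the whole WT range on opposite sides at 2 stages, by at least 0.32 on the log2 scale against the WT pool of each stage. These are 9 of 75, against 8.55% of all genes under the same rule. With 1 pool per genotype and stage these contrasts between stages were not tested. Among them Mrps34 had the widest presymptomatic difference (0.96), against −0.80 at end stage. Mrpl1, the protein of the stalk that releases tRNA, stood at 0.68 before symptoms and −0.42 at onset.

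Mrpl46 stood at 0.33 before symptoms, −0.38 at onset and −0.44 at end stage. The corresponding values were 0.45, −0.52 and −0.53 for Mrpl50, and 0.48, −0.45 and −0.43 for Mrps18c. In these 3 genes both later stages lay opposite to the first. Mrpl55 stood at 0.43 before symptoms and −0.56 at end stage, and Timm8b at 0.42 and −0.64 at the same stages.

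Mrpl18 stood at −0.81 at onset and 2.65 at end stage, and Mrpl51 at 0.46 before symptoms, −0.44 at onset and 0.63 at end stage. In both genes the onset mutant pool was the lowest of the 6 pools.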

How the results depend on the processing

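The 3 calls in the set rest on few arrays. Leaving out 1 pool at a time, the number of genes of the set called lower before symptoms ran from 0 to 3, against 2 with all pools, being 0 without the WT onset pool and 3 (Tomm34 added) without the end-stage WT pool. It was also 0 with neqc, with the deposited normalized values and with no detection filter. With the 75th-percentile shift and with a trended robust prior it was 3, Tomm34 added. At end stage the number called higher ran from 0 to 1 with pools left out, being 0 without the WT onset pool, and was 0 with the deposited normalized values and with no filter. The number called lower at end stage, 0 in the main setting, ran from 0 to 1 with pools left out (Tomm34 without the end-stage WT pool). It was 1 (Tomm22) with neqc, with probes detected on all 6 arrays and with a trended robust prior, and 2 (Tomm22 and Tomm34) with the 75th-percentile shift. For the symptomatic pools together neqc called 1 gene lower (Mrps30), and 0 to 1 were called higher with pools left out (Mrpl18 without the onset mutant pool). Mutant and WT pools of a stage were paired in the genotype test, and with no replicate block 0 genes of the set were called in either direction, as with the block.

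The presymptomatic median of 0.30 was 0.61 with the 75th-percentile shift, 0.19 with the deposited values and 0.18 against the end-stage WT pool. The onset median of −0.03 was −0.12 with the 75th-percentile shift and −0.20 against the end-stage WT pool. The end-stage median of −0.26 was −0.36 with the deposited values, −0.10 against the presymptomatic and −0.12 against the onset WT pool. The share of the set's probes detected on all arrays was 41.6% as deposited. No called difference, and none of these medians, reversed its sign in the settings run, while the onset differences of Mrpl43 and Tomm34, both near 0, did. The cause of these shifts was not tested.

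Counts over all probes moved more. The end-stage count of 415 was 213 with neqc, 831 with the 75th-percentile shift (62.6% higher, against 81.4%), 2 with the deposited values, 54 with no filter, 813 with the trended prior and 12 (without WT onset) to 529 (without WT end stage) with pools left out. The onset count of 86 was 0 with neqc, deposited values or no filter, 180 with the shift, 194 with the trended prior and 0 (without WT onset) to 61 with pools left out. The presymptomatic count of 258 was 0 with neqc or deposited values, 427 with the shift, 16 with no filter and 0 (without WT onset) to 462 (without WT end stage) with pools left out. The symptomatic count of 440 was 190 with neqc, 193 with no filter, 733 with the trended prior and 86 (without the end-stage mutant pool) to 415 with pools left out, with 186, 260 and 173 without the end-stage, onset and presymptomatic WT pool. The genotype count of 0 was 1 with the shift, 13 without the onset pools and 648 without the presymptomatic pools, with 0 genes of the set in each.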

Other observations

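Other genes of mitochondrial upkeep, not described above, were measured in the same pools. The 9 genes for maintenance and transcription of mitochondrial DNA had medians of 0.40, −0.17 and −0.26 at the presymptomatic stage, onset and end stage, and 8 of 9 stood lower at end stage. Among them Tfam, the packaging and transcription factor of mitochondrial DNA, stood at 0.59, 0.05 and −0.22. Of 15 citric acid cycle genes 12 were measured, with medians of −0.22, −0.27 and −0.41, and 11 of 12 stood lower at end stage. Of 14 proteases and quality control genes 9 were measured, with medians of −0.11, 0.08 and 0.19. None of these genes passed in any comparison. Of 9 regulators of mitochondrial biogenesis 6 were measured. In that list Myc, a transcription factor of growth, rose at end stage (1.5, adjusted p = 0.0287 in limma's test) and no other gene passed. Of all probes 3.26% passed at end stage.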
